A study of Rattus norvegicus with 10 samples.

Results

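The melanin-concentrating hormone (MCH) and orexin systems were examined in RNA-sequencing of the arcuate nucleus (ARC) of Wistar rat dams. The genes were taken by name from the deposited table: *Pmch* and *Hcrt*, which encode the peptide precursors, and *Mchr1*, *Hcrtr1* and *Hcrtr2*, which encode the receptors. All 5 were found among its 12828 rows, each in a single row, so that all 5 had passed the low-value filter of the table. The RNA-sequencing, part of a larger study of folate forms and doses, set folic acid (FA) beside methylfolate (MTHF) at 5X intake in pregnancy. It covered 10 first-time pregnant dams, 5 labelled 5XFA and 5 labelled 5XMTHF, killed upon giving birth. Per the paper, animals were killed after a daytime fast, so the levels given here are those of fasted dams. The ARC was cut free-hand from a frozen coronal slice with the third ventricle as the guide, so that adjoining tissue could be included.

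The data used here are the authors' average log2 CPM of each gene over the libraries, with 1 value per gene. CPM states a gene's read count relative to a fixed library total. It is thus a share of reads that is not divided by transcript length. The per-sample columns carry only the numbers 1 to 10 as names, which match no dam. They were therefore not used, and 5X-FA and 5X-MTHF dams were not compared. No value per dam, spread between dams, counts of each library or test was obtained for the levels that follow, which are descriptions of all dams together.

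MCH and the orexins are neuropeptides made by separate groups of neurons in the lateral hypothalamus and, for MCH, the zona incerta. The cell bodies lie lateral and dorsal to the ARC, and the axons reach most of the brain. MCH promotes feeding and energy storage and acts in sleep, and in lactating rats it also appears in neurons of the preoptic area. The orexins (hypocretins) sustain wakefulness, arousal and feeding, and loss of the orexin neurons causes narcolepsy. MCH acts in rodents through MCHR1, a receptor found on the primary cilium of neurons. Orexin-A binds both orexin receptors, whereas orexin-B prefers the second, HCRTR2.

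*Pmch*, the precursor gene of MCH, was among the most abundant transcripts by reads. Its average log2 CPM was 9.24, or 603 CPM, which ranked it 156 from the top of the 12828 rows and at percentile 98.8. The gene (ENSRNOG00000004632) is protein-coding and lies on chromosome 7 of Rnor_6.0 from 28654733 to 28657522. In the order of average values it stood just below *Sv2a*, a synaptic vesicle protein gene (log2 CPM 9.25), and just above *Hap1*, the gene of huntingtin-associated protein (log2 CPM 9.23). In bulk tissue a small number of cells with much RNA and a larger number with less cannot be told apart.

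*Hcrt*, which encodes the precursor of both orexins, was lower than *Pmch* but above the middle of the table. Its average log2 CPM was 5.68, or 51.3 CPM, at percentile 65.5 and rank 4433. The gene (ENSRNOG00000018892) spans 1217 bp on chromosome 10 of Rnor_6.0, from 88669214 to 88670430. *Fbxo34* and *Nup58* were next to it in the order of average values, both at a log2 CPM of 5.68. The CPM of *Pmch* was 11.7 times that of *Hcrt*, a log2 difference of 3.55.

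The receptor genes were all in the lowest 25% of the table, whose upper limit was a log2 CPM of 3.65. *Mchr1*, the MCH receptor (ENSRNOG00000018895, chromosome 7 of Rnor_6.0 from 122456799 to 122459960), was at a log2 CPM of 3.45, or 10.9 CPM and percentile 22.0. *Hcrtr2*, the receptor for both orexins (ENSRNOG00000011251, chromosome 8 from 83307684 to 83421612), was at 3.17, or 9.01 CPM and percentile 18.0. *Hcrtr1*, the receptor that prefers orexin-A (ENSRNOG00000013838, chromosome 5 from 148346031 to 148355406), was the lowest of the 5 at 2.81, or 7.03 CPM and percentile 13.8. The levels of the receptors lay within 0.63 log2 units of each other, and whether neighbours in this order differ beyond the spread between dams was not tested. In the order of average values, *Mchr1* stood between *RGD1359127* and *Polr2d*, *Hcrtr2* between *Poli* and *RGD1560854*, and *Hcrtr1* between *Zfp472* and *Opn3*.

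**Figure D1:**
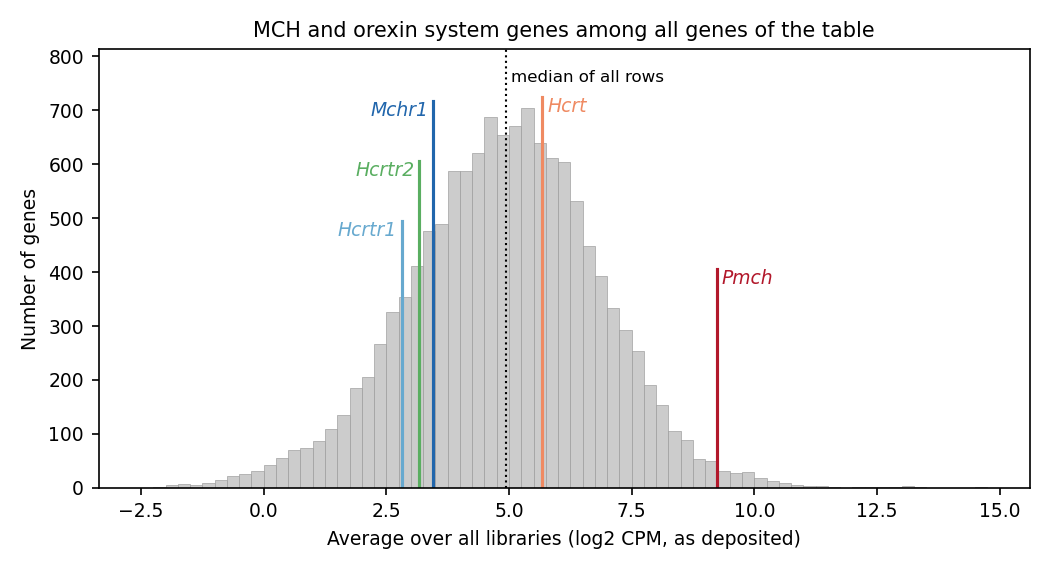
Distribution of the authors' average log2 CPM over the 12828 genes of the table (x axis, bins of equal width; y axis, number of genes), with the 5 MCH and orexin system genes as coloured lines whose heights carry no value and the median of all rows, 4.94, as a dotted line. *Pmch* stands in the upper tail at 9.24 and *Hcrt* at 5.68, whereas the receptor genes lie between 2.81 and 3.45, left of the median.

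Together the peptide genes accounted for 654 CPM and the receptor genes for 26.9 CPM. The *Pmch* reads were 55.2 times those of *Mchr1*, whereas the *Hcrt* reads were 7.30 times those of *Hcrtr1* and 5.70 times those of *Hcrtr2*. Because CPM grows with transcript length, limits per length were worked out from the gene spans, as a spliced transcript cannot be longer than its gene. *Pmch*, with a span of 2790 bp, had at least 216 CPM per kb of transcript. *Hcrt* had at least 42.2 CPM per kb. For *Mchr1* to reach the limit of *Pmch* its transcript would have to be 50.5 bp long, and to reach the limit of *Hcrt* it would have to be 259 bp long. The corresponding lengths for *Hcrtr2* were 41.7 and 214 bp, and those for *Hcrtr1* were 32.5 and 167 bp. A transcript that encodes a receptor with its set of membrane-spanning helices is longer than any of these, so that the peptide genes were also above the receptor genes per length. *Hcrt* would reach the limit of *Pmch* only with a transcript of 238 bp, which is too short to encode its precursor. The order among the receptors was not settled per length, since their spans of 3162, 9376 and 113929 bp include introns.

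Promoters were matched for 3 of the 5 genes, *Hcrt*, *Hcrtr1* and *Hcrtr2*, and not for *Pmch* and *Mchr1*. The 3 are shown to set the orexin peptide gene beside its receptor genes, whose levels differ. Each holds 250 bases before and 50 bases after a transcript start, is read from RefSeq on GRCr8 on the minus strand and is written 5′ to 3′. This build differs from that of the expression table. They lie at chr10:86191475-86191774 for *Hcrt*, chr5:147770801-147771100 for *Hcrtr1* and chr8:85986356-85986655 for *Hcrtr2*. The start used for *Hcrtr1* lies 996 bp inside the outer end of the gene. Capitals mark matches on either strand to TATAAA for the TATA box, CCAAT for the CCAAT box, GGGCGG for the GC box and TGACG for a part of the cAMP response element. No matches overlapped.
Hcrt: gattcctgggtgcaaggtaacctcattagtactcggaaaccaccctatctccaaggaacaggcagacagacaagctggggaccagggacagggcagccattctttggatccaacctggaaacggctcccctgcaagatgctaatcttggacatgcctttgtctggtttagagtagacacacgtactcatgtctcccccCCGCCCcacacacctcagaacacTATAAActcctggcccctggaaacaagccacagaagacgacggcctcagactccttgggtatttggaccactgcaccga
Hcrtr1: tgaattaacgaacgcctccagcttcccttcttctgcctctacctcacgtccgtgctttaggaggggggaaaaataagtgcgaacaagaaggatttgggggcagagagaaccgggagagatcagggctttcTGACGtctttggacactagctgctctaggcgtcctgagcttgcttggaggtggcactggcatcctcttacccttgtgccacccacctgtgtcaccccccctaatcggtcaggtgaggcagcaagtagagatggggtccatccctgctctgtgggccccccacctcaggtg
Hcrtr2: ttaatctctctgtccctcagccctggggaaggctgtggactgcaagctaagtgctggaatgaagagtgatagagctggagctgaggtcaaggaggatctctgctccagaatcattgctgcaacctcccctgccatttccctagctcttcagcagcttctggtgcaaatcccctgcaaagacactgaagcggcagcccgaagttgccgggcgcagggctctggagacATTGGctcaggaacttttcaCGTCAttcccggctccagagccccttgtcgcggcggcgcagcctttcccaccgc

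Of the 3 promoters, TATAAA was matched only in *Hcrt*, on the coding strand from 29 bases before the start. These letters occurred in 14.2% of all 33469 RefSeq promoters of 300 bases and in 6.31% of the 8831 promoters matched to a gene of the expression table. These shares and those that follow count a match on either strand at any place in the 300 bases. *Hcrt* also held a GC box on the other strand from 52 bases before the start. GGGCGG occurred in 33.1% of all promoters and 64.0% of those of table genes. TGACG was matched in *Hcrtr1* from 120 bases before the start and, on the other strand, in *Hcrtr2* from 4 bases before the start, against 21.2% of all promoters and 32.3% of those of table genes. Of the 3, *Hcrtr2* alone held a CCAAT box, on the other strand from 24 bases before the start, and 37.5% of promoters held these letters, both overall and among table genes. The GC content was 54%, 57% and 58% for *Hcrt*, *Hcrtr1* and *Hcrtr2*, against a median of 51.7% over all promoters. Among 557 genes of the expression table whose promoter held TATAAA, the median log2 CPM was 4.87, and *Hcrt* stood at percentile 67.7 of them. A match is a description of the letters and does not show that a factor binds there.

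No other row of the table overlapped the span of any of the 5 genes. The nearest row to *Pmch* was *Nup37*, a nuclear pore gene 44168 bp away with a log2 CPM of 3.37, far below *Pmch* itself. *Hcrt* lay in a denser stretch, with 7 rows within 100 kb and *Kcnh4*, a potassium channel gene with a log2 CPM of 3.18, only 1869 bp away. *Pef1*, the row nearest to *Hcrtr1*, was 2145 bp away and at 5.38 was above the receptor. *Mchr1* had 3 rows within 100 kb, the nearest being *LOC100364435* at -1.43. *Hcrtr2* had no row within 100 kb, and its nearest, *Hmgcll1*, was at 5.49.

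*Pmch* had a higher share of reads than each of the other neuropeptide genes of the hypothalamus that were matched. These were 16 of 18 listed, and 8 of them were above *Hcrt*. *Npy* and *Qrfp* were not analysed here. The highest were *Oxt* (oxytocin) at a log2 CPM of 8.33, *Avp* (vasopressin) at 7.96 and *Penk* (proenkephalin) at 7.68. Their median was 5.51, against 4.94 for all rows of the table.

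Other receptors of feeding peptides had low shares of reads, as *Mchr1*, *Hcrtr1* and *Hcrtr2* did. Of 15 listed, 13 were matched, and 12 of these were below the table's median. A total of 5 were above *Mchr1* and 4 were below *Hcrtr1*. The highest were the neurotensin receptors *Ntsr2* at 6.65 and *Ntsr1* at 4.05 and the neuropeptide Y receptor *Npy1r* at 4.42. The median of the 13 was 2.97, which is between the values of *Hcrtr1* and *Hcrtr2*.

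Genes that MCH or orexin neurons are known to express alongside the peptides, most of them also used by many other neurons, were mostly above the middle of the table. Of 12 listed, 10 were matched and 8 were above the median of all rows. *Peg3*, an imprinted gene, was at 11.38, *Scg2* (secretogranin II) at 9.84 and *Nptx1* (neuronal pentraxin 1) at 7.34. Only *Peg3* and *Scg2* exceeded *Pmch*, and 7 of the 10 exceeded *Hcrt*. Of 10 listed genes that cut and pack peptide precursors, steps on which MCH and orexin production depends, 8 were matched. *Pcsk1*, a main prohormone convertase gene, and *Pcsk1n* were not analysed here. All 8 were above the table's upper quartile of 6.18, led by *Cpe* (carboxypeptidase E) at 10.74, *Pam*, which amidates peptide ends, at 8.89 and *Chgb* (chromogranin B) at 8.64. *Cpe* was the only one of these above *Pmch*.

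The MCH and orexin receptors signal through G proteins of the Gq and Gi/o classes. Of 18 listed genes of these G proteins and their effectors, 17 were matched, and all 17 were above *Mchr1*, the highest of the receptor genes. *Mchr1* itself was at percentile 22.0, so most rows of the table were above it too. A total of 12 of the 17 were above the upper quartile. *Gnao1*, the alpha subunit of Go, was at 8.42, *Gnai2*, an alpha subunit of Gi, at 8.16 and *Adcy5*, an adenylyl cyclase, at 7.64. These genes serve many receptors, not those of MCH and orexin alone.

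**Figure D2:**
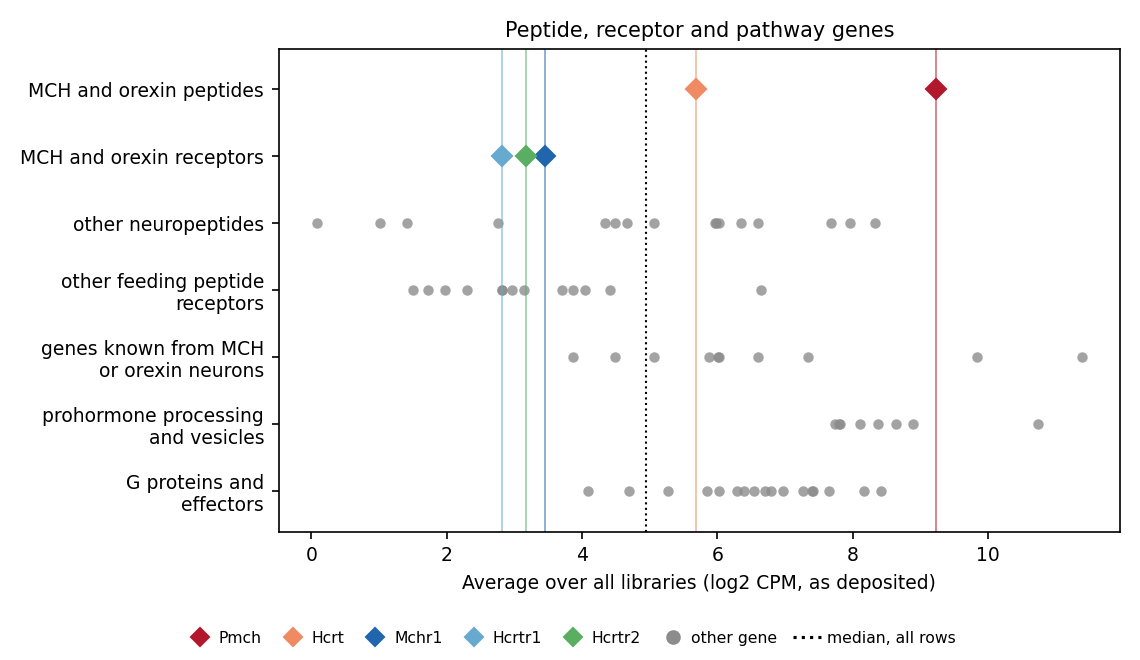
Authors' average log2 CPM (x axis) of each matched gene of the lists (rows), as grey circles, with the 5 MCH and orexin system genes as coloured diamonds and as vertical lines; the dotted line is the median of all rows, 4.94. *Pmch* at 9.24 is right of all 16 matched other neuropeptide genes, and *Mchr1*, *Hcrtr1* and *Hcrtr2* fall among the other feeding peptide receptors.

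The labelled tissue was checked against markers of the ARC and of regions around it. Of 10 markers listed for ARC neurons, 9 were matched, and all 9 were below the table's median. The other, *Npy* (neuropeptide Y), a main peptide gene of the ARC, was not analysed here. The list includes *Nr5a1*, which marks the adjoining ventromedial nucleus rather than the ARC, at 1.88. The highest were *Pomc* (pro-opiomelanocortin) at a log2 CPM of 4.67, *Esr1* (estrogen receptor 1) at 4.49 and *Tac3* (neurokinin B) at 4.34. *Agrp*, which defines the hunger-promoting neurons of the ARC, was at 1.42 and *Kiss1* (kisspeptin) at 0.08, both named after their values were seen. The 9 markers summed to 87.7 CPM, and to 84.0 CPM without *Nr5a1*, against 603 CPM for *Pmch*. As *Npy* is not in it, this is not a full sum of ARC markers. The count and the sum also depend on which genes were listed. *Pdyn* at a log2 CPM of 6.61, *Sst* at 6.35 and *Cartpt* at 6.02 were above the table's median. They were not in the ARC list but among the other neuropeptide genes, of which 9 were above the median and 7 were not. The lists overlap, since *Pdyn* and *Cartpt* were also listed among the genes known from MCH or orexin neurons. *Pomc*, *Tac3*, *Agrp*, *Ghrh* and *Kiss1* were in both the ARC list and that of the other neuropeptide genes. Markers of the lateral hypothalamus and zona incerta summed to 757 CPM over 5 of 6 listed, of which *Pmch* and *Hcrt* made up 654 CPM, and 1 of the 5 was below the median. The other 3 were *Meis2* at 5.99 (63.4 CPM), *Nts* (neurotensin) at 5.07 (33.5 CPM) and *Lhx6* at 2.71 (6.55 CPM). Most of this sum therefore restates the levels of *Pmch* and *Hcrt* and is no separate measure of the region.

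Markers of other regions were present as well. Those of paraventricular, supraoptic and suprachiasmatic neurons summed to 687 CPM over 7 matched genes, of which *Oxt* gave 322 and *Avp* 249, and 4 of the 7 were below the table's median. The 8 striatal markers summed to 413 CPM, with 3 below the median, and were led by *Ppp1r1b* at a log2 CPM of 7.07, a phosphoprotein of dopamine-responsive neurons. Cortical and hippocampal markers summed to 347 CPM over 6 genes, of which *Nrgn* (neurogranin) gave 178 and *Slc17a7*, a glutamate transporter gene, 144. The other 4 of that list were below the median, at log2 CPM of 1.96 to 3.34. Thalamic markers summed to 387 CPM over 6 genes, of which *Slc17a6*, a glutamate transporter gene that is also used by hypothalamic neurons, gave 272, and 3 were below the median. *Mchr1* is known from striatal and cortical neurons as well as from the hypothalamus. How much of the reads of *Pmch*, *Hcrt* or the receptors came from tissue beside the ARC was not tested. Among markers of non-neuronal cells, *Pmch* was below the myelin gene *Mbp* at 12.59 and the astrocyte genes *Aqp4* at 10.22 and *Gfap* at 9.62, and above *Mog* at 7.26 and *Aldh1l1* at 5.51. It was also above the 3 microglial markers, at 4.08 to 4.46, and the matched endothelial markers *Flt1* at 6.28 and *Cldn5* at 5.77. Matched tanycyte and pituitary markers were all below *Hcrt*, with *Crym* at 5.53 the highest of the tanycyte list and *Cga* at 4.95 the highest of the pituitary list.

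**Figure D3:**
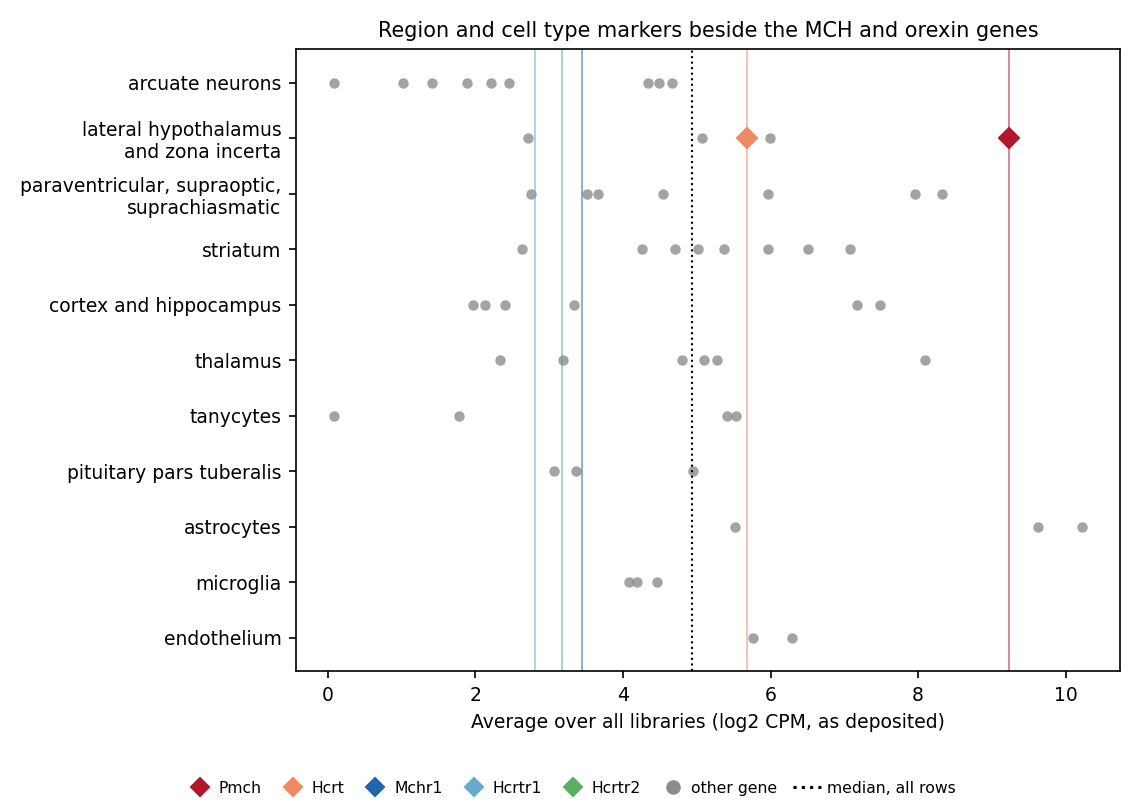
Authors' average log2 CPM (x axis) of matched markers of brain regions and some cell types (rows), as grey circles, with *Pmch* and *Hcrt* as diamonds in the row of the lateral hypothalamus and all 5 MCH and orexin system genes as vertical lines; the dotted line is the median of all rows. The 9 genes of the ARC list lie left of the median, between 0.08 and 4.67, whereas *Pmch* stands at 9.24.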

How the data were processed

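Poly-A selected RNA of the ARC of 10 dams was sequenced by the authors as paired-end reads. Per the labels' processing notes and the methods of the paper, the authors trimmed reads with Trim Galore 0.5.0, aligned them with STAR 2.6.0c to Rnor_6.0 with Ensembl genes and counted them with HTSeq 0.6.1p2. The methods state a minimal filter on reads per gene for the authors' DESeq2 analysis. Whether the same filter made this table, and whether averaging came before or after the log, are not given in the sources used here. The authors deposited an average log2 CPM over all libraries, the only measurement used. Taken to the linear scale, the deposited values sum to 100.2% of a full library.

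A further 10 per-sample columns, named 1 to 10, match no label and were used in no step. Another 4 columns hold the authors' own comparison of the diets (a fold change, an F statistic and p-values) and were not used. Neither the planned test between diets nor the exact tests could therefore be run, and neither the counts behind each library nor an error was obtained from the values used.

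Each value was taken to CPM as a power of 2, and its percentile is the share of rows at or below it. Percentile and rank were tested on simulated data, and the outcome of that test is not given here. Members, gene lists and tests were chosen with earlier results of these data known. The text names all 5 members, the genes next to each in level, and the 3 highest of each longer gene list or all of a short one. Of most lists of region and cell type markers only some genes are named, and others enter only through sums, counts, ranges or comparisons. Listed genes without a matching row were not analysed here, and 1 marker is not reported. Promoters came from RefSeq (GRCr8). Alternative row sets for the percentiles were protein-coding rows only and rows above the lowest 25%. Calculations ran in Python 3.11.15 (pandas 2.3.3, numpy 2.4.6, scipy 1.17.1), and plots were drawn with matplotlib 3.10.9.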

Additional observations from a re-analysis of the deposited data

How the results depend on the processing

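The percentiles depended on which rows formed the reference. Among protein-coding rows only, *Pmch* kept percentile 98.8, whereas *Hcrt* was at 64.5, *Mchr1* at 20.2, *Hcrtr2* at 16.1 and *Hcrtr1* at 12.05. Among rows above the lowest 25%, *Pmch* was at 98.4 and *Hcrt* at 53.9, and the receptor genes, which lie in that lowest part of the table, had no value. These shifts follow from which rows are counted, since the values themselves do not change. Leaving out *Nr5a1*, an alternative chosen after seeing the data, lowered the sum of the ARC list from 87.7 to 84.0 CPM. The alternatives that need a value per dam were not run: another pseudocount, filter, scaling or test, the median over dams, and leaving out each dam. No paired analysis was possible because the per-sample columns carry no replicate number of the labels. Since neither the counts of each library nor the spread between dams was obtained, small differences between genes, such as those among the receptors, cannot be placed against error.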
